A study of Mus musculus with 4 samples.

Results

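The inner blood-retina barrier was followed through 10 genes of its endothelium in mouse retina: the junction genes Cldn5, Ocln, Tjp1, Cdh5, Pecam1 and Esam, the permeability gene Plvap, and the transport genes Mfsd2a, Slco1a4 and Abcb1a. They were chosen by name, for their known roles, with earlier results of these data known. All 10 were found among the 43280 genes of the deposited expression table. Total RNA came from retinas freed by dissection; the mice were labelled Wildtype and C6/BL6J. The STZ mice were made diabetic with streptozotocin, which kills pancreatic beta cells, dosed at 50 mg/kg by intraperitoneal injection on each of 5 days from 6 weeks of age, and had blood glucose above 25 mM when tested 10 days later. The control mice had been given citrate buffer. Both groups were fed freely until their retinas were collected at 18 weeks of age by the protocol, but the table's columns carry a tag of 8W that the labels do not explain, so the duration of diabetes is uncertain. There were 2 STZ libraries and 2 control libraries, and each is called by its group and the tag 2L or 4R that its column carries. Separate animals are not stated for the libraries of a group, so the p-values reflect the spread between these libraries, which may be technical.

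Retinal capillaries form a barrier because neighbouring endothelial cells are sealed by tight junctions, move few vesicles across the cell, and pump many compounds back into the blood. Claudin-5, occludin and the scaffold protein ZO-1 build the tight junction, VE-cadherin holds the adherens junction below it, and PECAM-1 and ESAM are adhesion molecules of endothelial contacts. PLVAP forms the diaphragms of fenestrae and caveolae and is low in mature barrier vessels, whereas the lipid transporter MFSD2A keeps vesicle transport low. Loss of this barrier with leakage of plasma is a hallmark of diabetic retinopathy in patients.

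None of the 10 barrier genes passed the test between STZ and control retina, and neither did any other of the 18127 genes tested. Tjp1 and Mfsd2a were the 2 genes with both STZ libraries above both controls, Esam was the 1 gene with both below, and the other 7 overlapped between the groups. Of all genes tested, 14.3% had both STZ libraries above and 14.3% both below. The median log2 fold change, STZ over control, was 0.060 over the 10 genes and -0.0057 over all 18127 genes tested. The larger differences lay between the STZ libraries themselves: Cldn5, Cdh5, Pecam1, Slco1a4 and Abcb1a read 0.434 to 0.590 times as much in STZ 2L as in STZ 4R, while Mfsd2a read 1.61 times as much. In bulk tissue, fewer endothelial cells and less RNA per endothelial cell cannot be told apart.

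The libraries held 29352330 to 39299653 reads on genes, and a single barrier gene had between 67 and 4016 reads in a library. The retina label matched its markers, with 6 genes of Müller glia, the main glia of the retina, summing to 110620 and 112270 normalized counts in the STZ libraries 2L and 4R, against 118670 and 113150 in the controls. Of these 6, 1 was higher and 5 were lower in STZ, with a median log2 fold change of -0.042, and limma called 0 (0 at an unadjusted p under 0.05). The 7 rod genes took 3.36% and 4.31% of reads in the STZ libraries 2L and 4R, against 4.10% and 4.58% in the controls, with 1 higher and 6 lower in STZ and 0 called in limma (0 at an unadjusted p under 0.05). The 4 libraries differed in tissue from outside the neural retina. Genes of lens took 8.86% of reads in STZ 2L and at most 0.0178% in any other library. The 12 pigment epithelium and melanocyte genes, all 12 higher in STZ and 0 called in limma (0 at an unadjusted p under 0.05), summed to 10690 and 6561 normalized counts in the STZ libraries 2L and 4R, against 2259.7 and 9772 in the controls. The 12 cornea and conjunctiva genes summed to 14517 and 12034 in the STZ libraries, against 2180.1 and 1009 in the controls. The part of these tissues in the barrier gene values was not tested.

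Promoter windows from RefSeq (build GRCm38.p6, 250 bases before to 50 after the transcription start) were found for 6 of the 10 genes: Cldn5, Ocln, Tjp1, Mfsd2a, Slco1a4 and Abcb1a. For Abcb1a (chr5:8566841-8567140) and Tjp1 (chr7:65371195-65371494) the window is not at the start of the gene span given below. That of Abcb1a lies outside the span and that of Tjp1 inside it. The 250 bases upstream of the start are printed for 3 genes that the 2 STZ libraries ordered in opposite ways: Cldn5 and Slco1a4, lower in STZ 2L than in STZ 4R, and Mfsd2a, higher in STZ 2L. They run 5′ to 3′ on the strand of the gene, with each CG dinucleotide in capitals, from chr16:18776597-18776846 (plus strand), chr6:141856221-141856470 (minus strand) and chr4:122961189-122961438 (minus strand), in the order below.
Cldn5: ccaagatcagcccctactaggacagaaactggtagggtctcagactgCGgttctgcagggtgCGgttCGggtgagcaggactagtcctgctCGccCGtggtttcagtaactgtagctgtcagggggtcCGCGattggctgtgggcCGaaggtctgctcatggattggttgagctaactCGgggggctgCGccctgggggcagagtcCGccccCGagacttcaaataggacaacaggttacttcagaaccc
Slco1a4: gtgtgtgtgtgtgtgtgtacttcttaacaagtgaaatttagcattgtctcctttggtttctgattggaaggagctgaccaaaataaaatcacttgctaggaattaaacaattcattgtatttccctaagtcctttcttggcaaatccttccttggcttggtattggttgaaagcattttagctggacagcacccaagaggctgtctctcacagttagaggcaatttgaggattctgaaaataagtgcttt
Mfsd2a: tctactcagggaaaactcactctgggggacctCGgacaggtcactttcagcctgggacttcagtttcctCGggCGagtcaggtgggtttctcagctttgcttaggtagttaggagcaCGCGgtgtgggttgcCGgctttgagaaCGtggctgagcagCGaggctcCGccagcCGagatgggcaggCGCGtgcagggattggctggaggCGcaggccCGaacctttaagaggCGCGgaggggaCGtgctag

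The upstream bases of Cldn5 held 12 CG dinucleotides and those of Mfsd2a 17, whereas those of Slco1a4 held 0. Over the full windows of the 6 genes, the CG count ran from 1 in Slco1a4 to 31 in Tjp1, and all 32851 windows in the table had a median of 7, with quartiles of 3 and 20. Cldn5 lay within the quartiles of all windows and Slco1a4 below them. Both genes were lower in STZ 2L than in STZ 4R, as 8 of the 10 barrier genes were. A link between CG count and library values was not tested. The letters CAGGAAG, a form of the motif of ETS factors such as ERG, were searched on both strands and occurred in 0 of the 7 windows of these 6 genes, and in 13.3% of all windows. That says only that these letters are not in these windows.

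Per kilobase of annotated exon, the barrier genes spanned a wide range of levels. Cldn5 averaged 536 normalized counts per kb over the 4 libraries and Tjp1 359, followed by Esam at 179.9 and Plvap at 121. Mfsd2a, at 60.6, Abcb1a, at 54.5, Pecam1, at 53.9, Slco1a4, at 47.7, and Cdh5, at 43.0, lay close together, and their library values overlapped on this scale. Mfsd2a was the highest of these only in STZ 2L, where it read 91.4 per kb. Ocln was lowest, at 23.7 normalized counts per kb. Cldn5 was above Tjp1 in 3 libraries and below it in STZ 2L, where Cldn5 read 341 and Tjp1 376 per kb.

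Cldn5 (chromosome 16, 18776847 to 18778262, mm10; all of its 1416 bases exon) encodes claudin-5, the main claudin of brain and retinal endothelium. It read 483 normalized counts in the STZ library 2L and 848 in 4R, against 922 in the control library 2L and 782 in 4R. The STZ 2L value was the lowest, and STZ 4R lay between the controls, so the groups overlapped. The log2 fold change was -0.41 ± 0.27 (SE; 95% interval -1.04 to 0.22), which did not pass (limma, adjusted p = 0.999). The difference rested on 1 library: the fold change was -0.0023 without STZ 2L and -0.81 without STZ 4R.

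Ocln (chromosome 13, 100496507 to 100552718) encodes occludin, a membrane protein of tight junctions that pigment epithelium and corneal epithelium also make. It read 97.1 normalized counts in the STZ library 2L and 107 in 4R, against 76.2 in the control library 2L and 121 in 4R. Both STZ values lay between the controls. Ocln differed by 0.084 ± 0.36 on the log2 scale (SE; limma, adjusted p = 0.999), and by -0.017 after quantile normalization.

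Tjp1 (chromosome 7, 65296165 to 65527781) encodes ZO-1, the scaffold that ties claudins and occludin to actin. It is made well beyond endothelium, in glia, neurons and epithelia, and had the most counts of the 10. The annotated genes Gm44792 and Gm44794 and the processed pseudogene Gm44795 overlap it. It read 2939.6 normalized counts in the STZ library 2L and 3321 in 4R, against 2599 in the control library 2L and 2353 in 4R. Both STZ libraries were above both controls. Tjp1 averaged 3130.4 ± 269.8 normalized counts in STZ and 2476 ± 174 in control (SD, n = 2 each), a log2 fold change of 0.34 ± 0.16 (SE; 95% interval -0.025 to 0.70). That did not pass (limma, adjusted p = 0.999).

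Cdh5 (chromosome 8, 104101625 to 104144511) encodes VE-cadherin, the cadherin of endothelial adherens junctions, and overlaps the antisense gene Gm29682, whose reads may not be told apart from its own. It read 143.5 normalized counts in the STZ library 2L and 243 in 4R, against 152 in the control library 2L and 184 in 4R. The STZ libraries were the lowest and the highest of the 4, with the controls between them. At 0.16 ± 0.33, its log2 fold change did not pass (SE; limma, adjusted p = 0.999), and it was -0.22 without STZ 4R.

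Pecam1 (chromosome 11, 106654217 to 106750628) encodes an adhesion molecule of endothelium that platelets and leukocytes carry as well. It read 217 normalized counts in the STZ library 2L and 438 in 4R, against 315 in the control library 2L and 371 in 4R. Again the STZ libraries were the lowest and the highest. Its log2 fold change was -0.15 ± 0.34 (SE; limma, adjusted p = 0.999), and it was 0.36 without STZ 2L. The summed level of 5 platelet genes was 310 and 232 normalized counts in STZ 2L and 4R, against 335 and 186 in control 2L and 4R, with the platelet chemokine gene Ppbp at 0 in 3 of the 4 libraries (2.01 in control 4R). The leukocyte and microglia list of 7 genes summed to 817 and 870.0 in STZ 2L and 4R, against 769 and 748 in control 2L and 4R.

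Esam (chromosome 9, 37528078 to 37538319) encodes an immunoglobulin-like adhesion molecule of endothelial tight junctions. It read 425 normalized counts in the STZ library 2L and 480.5 in 4R, against 592.5 in the control library 2L and 564 in 4R. Both STZ libraries were below both controls. Esam averaged 453 ± 39.1 normalized counts in STZ and 578 ± 20.0 in control (SD, n = 2 each). The log2 fold change was -0.35 ± 0.20 (SE; 95% interval -0.81 to 0.10; limma, adjusted p = 0.999).

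Plvap (chromosome 8, 71497765 to 71511752) overlaps Gtpbp3 on the opposite strand, and the strand setting of the counting is not given in the sources used here, so reads of the 2 genes may not be told apart. It read 267 normalized counts in the STZ library 2L and 220.0 in 4R, against 245 in the control library 2L and 228 in 4R. Of the 10 genes it varied least, by 1.21 times from the lowest to the highest library, and the groups overlapped. On the log2 scale it differed by 0.036 ± 0.25 (SE; 95% interval -0.54 to 0.61; limma, adjusted p = 0.999), and by -0.034 after quantile normalization.

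Mfsd2a (chromosome 4, 122946850 to 122961188) encodes the carrier that brings the omega-3 fatty acid DHA, bound to lysophosphatidylcholine, into brain and retina. Pigment epithelium makes it too. It read 206 normalized counts in the STZ library 2L and 128 in 4R, against 96.7 in the control library 2L and 115 in 4R. Both STZ libraries were above both controls, STZ 4R by a small margin. Mfsd2a averaged 167 ± 54.8 normalized counts in STZ and 106 ± 12.7 in control (SD, n = 2 each), a log2 fold change of 0.62 ± 0.34 (SE; 95% interval -0.16 to 1.40), the largest of the 10 genes. It did not pass (limma, adjusted p = 0.999), and it was 0.28 without STZ 2L, the library with 8.86% of its reads on lens genes. The pigment epithelium and melanocyte sum was highest in STZ 2L as well, and lowest in control 2L, as Mfsd2a was. Between the 4R libraries the order differed: the sum was 6561 in STZ and 9772 in control, where Mfsd2a read 128 and 115. The part of pigment epithelium and melanocytes in the Mfsd2a value was not tested.

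Slco1a4 (chromosome 6, 141805440 to 141856199) encodes an organic anion transporter of the barrier, with close Slco1a relatives to which reads may also map. It read 233 normalized counts in the STZ library 2L and 437 in 4R, against 207 in the control library 2L and 345 in 4R. In each group the 2L library was the lower one, and the groups overlapped. Its log2 fold change was 0.26 ± 0.37 (SE; limma, adjusted p = 0.999), and it was -0.20 without STZ 4R and -0.11 without control 2L.

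Abcb1a (chromosome 5, 8660077 to 8748575) encodes P-glycoprotein, the main drug efflux pump of mouse barrier endothelium. It read 185 normalized counts in the STZ library 2L and 425 in 4R, against 258 in the control library 2L and 326 in 4R. This was the widest range of the 10 genes, 2.30 times between the STZ libraries, with both controls inside it. Between the groups it differed by -0.049 ± 0.38 on the log2 scale (SE; limma, adjusted p = 0.999), by 0.55 without STZ 2L and by 0.055 when set against vessel content. Its neighbour and near copy Abcb1b, a P-glycoprotein found mostly outside barrier endothelium, had 107 and 45.5 normalized counts in STZ 2L and 4R, against 15.9 and 32.2 in control 2L and 4R, and reads may have been split between the copies. The annotated genes Gm42684 and Gm42686 also overlap Abcb1a.

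**Figure D1:**
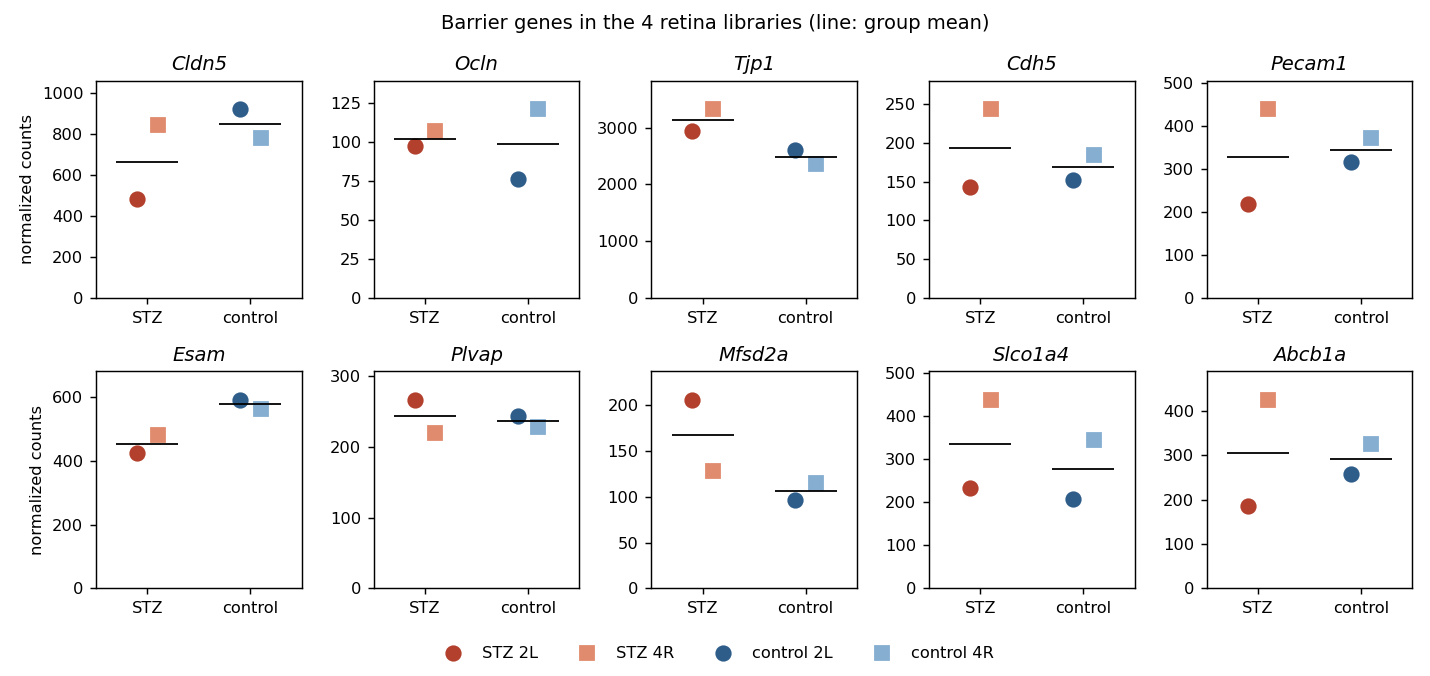
Normalized counts (vertical axis, from 0) of the 10 barrier genes in STZ (left, red) and control (right, blue) retina, with circles for 2L, squares for 4R and a line at the group mean. Tjp1 and Mfsd2a have both STZ libraries above both controls and Esam has both below. Cldn5, Cdh5, Pecam1, Slco1a4 and Abcb1a are lower in STZ 2L than in STZ 4R.

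Across all genes, 0 of 18127 passed an adjusted p of 0.05 in limma (0% called), as did 0 of the 10 barrier genes. At an unadjusted p under 0.05 limma gave 0 of the 10, where 2.76% of all genes tested were at or past that level. Tjp1 came nearest, at an unadjusted p of 0.0642 in limma. On the recovered reads 0 of the 10 passed in edgeR and in DESeq2, which called 0 and 47 of all genes, all 47 higher in STZ. None of the 10 passed in the authors' deposited table either, where 0.281% of genes with an adjusted p did and the adjusted p of each barrier gene was 0.9997. Both STZ libraries were above both controls in 2 of the 10 genes and in 14.3% of all genes tested, and below both controls in 1 of the 10 and in 14.3% of all genes tested. These counts lie near those of all genes. With 2 libraries a group the intervals were wide: that of Mfsd2a reached 1.40 on the log2 scale and that of Cldn5 -1.04, so the missing calls do not show that the levels were alike.

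Vessel content was read from 24 other endothelial genes, among them the angiopoietin receptors Tie1 and Tek, the VEGF receptors Kdr, Flt1 and Flt4, the transcription factors Erg, Sox17 and Sox18, and the von Willebrand factor gene Vwf. All 24 were tested and 0 passed in limma (0 at an unadjusted p under 0.05), with 10 higher and 14 lower in STZ and a median log2 fold change of -0.12. Their mean log2(normalized counts + 1) was 6.79 and 7.35 in the STZ libraries 2L and 4R, against 7.17 and 7.19 in the control libraries 2L and 4R. STZ 2L was the lowest and STZ 4R the highest, with both controls between them. The difference, STZ minus control, was -0.10 on the log2 scale, with p = 1 in a two-sided exact permutation test over libraries, which with 2 against 2 cannot go below 0.333. Its sign depended on the summary: with the median over the list in place of the mean it was 0.041, and with the log2 of the summed values 0.034. Most of that sum came from Kdr and Flt1, and without them it gave -0.13, a choice made after seeing the data. Per kilobase of exon, Kdr averaged 707 normalized counts and Flt1 188, against 96.4 for Nos3 and 27.7 for Tie1. Whether cells other than endothelium add to the Kdr and Flt1 values was not tested.

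The vessel genes with the smallest p were Nos3, Clec14a, Robo4 and Sox17. Nos3, the endothelial nitric oxide synthase, had 279 and 385 normalized counts in STZ 2L and 4R, against 507 and 421 in control 2L and 4R, with both STZ libraries below both controls. Robo4, a receptor that steadies endothelial junctions, had 36.9 and 139.8 in STZ 2L and 4R, against 95.5 and 174 in control 2L and 4R. Sox17, a transcription factor of arterial endothelium, had 9.50 and 47.1 in STZ 2L and 4R, against 50.0 and 34.2 in control 2L and 4R. Clec14a, an endothelial lectin-like protein, went the other way, with 151 and 94.3 in STZ 2L and 4R, against 67.1 and 86.5 in control 2L and 4R. None of the 4 passed (limma, adjusted p = 0.999 each).

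Between the 2 STZ libraries, barrier and vessel genes differed in the same direction. STZ 2L minus STZ 4R had a median of -0.47 on the log2 scale over the 10 barrier genes and -0.49 over the 24 vessel genes, against 0.0038 over all 18127 genes tested. STZ 2L was the lowest of the 4 libraries for 5 of the 10 barrier genes, 14 of the 24 vessel genes and 29.0% of all genes tested. STZ 4R was the highest for 5 of the 10, 13 of the 24 and 23.6%. The lower reading of STZ 2L was not particular to vascular lists: 6 of the 7 rod genes read lower in STZ 2L than in STZ 4R, with a median of -0.24, and 5 of the 7 were lowest in STZ 2L. The part of overall tissue makeup in the vessel and barrier values was not tested. Between the controls, 2L minus 4R had a median of -0.24 over the barrier genes and 0.17 over the vessel genes. Plvap and Mfsd2a did not share the low reading of STZ 2L and were highest in it, by 0.28 and 0.68 on the log2 scale over STZ 4R.

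**Figure D2:**
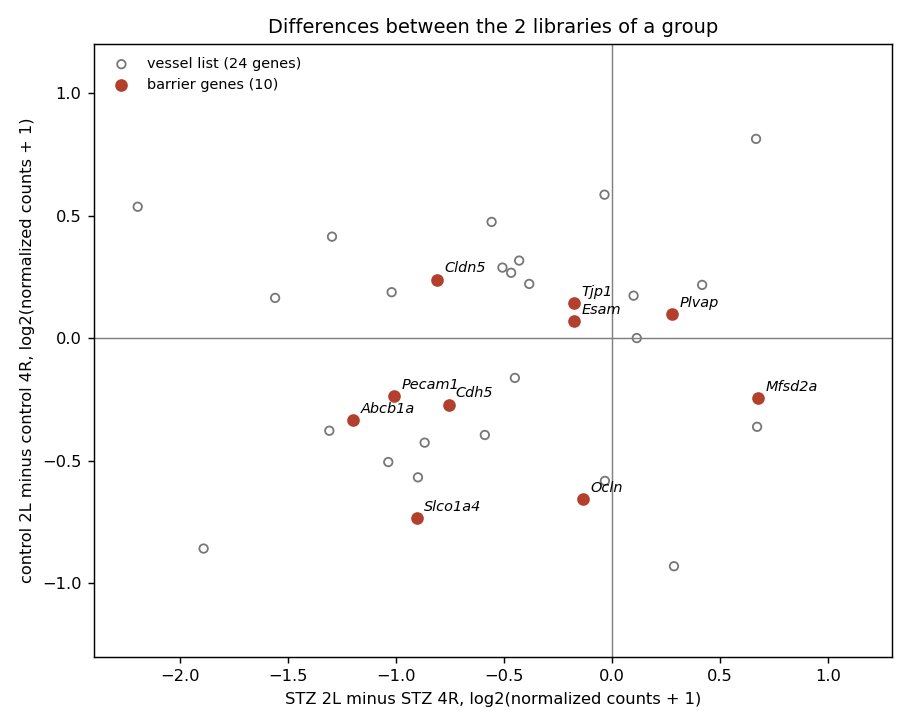
Differences between the libraries of a group on the log2 scale, STZ 2L minus STZ 4R (horizontal) and control 2L minus control 4R (vertical), for the 10 barrier genes (filled, named) and the 24 vessel genes (open). Most points lie left of 0: 8 of the 10 barrier genes and 18 of the 24 vessel genes read lower in STZ 2L than in STZ 4R, and Plvap and Mfsd2a lie to the right.

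Set against vessel content, by subtracting each library's mean log2 vessel value from every gene, the barrier genes again gave 0 calls of 10 in limma, and 0 of 10 at an unadjusted p under 0.05. Over all genes the same fit called 1.01% at an adjusted p of 0.05 and 3.16% at an unadjusted p under 0.05. Cldn5 stood 2.13 and 2.38 log2 units above vessel content in STZ 2L and 4R, against 2.69 and 2.43 in control 2L and 4R. The STZ values were now both below the controls, at a log2 fold change of -0.30 ± 0.39 (SE; limma, adjusted p = 1.00). Esam also lay below both controls (-0.25 ± 0.40), which makes 2 of 10 genes, against 4.69% of all genes tested. Tjp1 (0.44 ± 0.35) and Cdh5 (0.26 ± 0.47) lay above both controls, 2 of 10 again, against 12.8% of all genes tested. The intervals of all 4 differences included 0. Relative to the controls, the subtraction moved every gene up in STZ 2L and down in STZ 4R. The shares of all genes therefore rest partly on the subtraction itself. Before it, 14.3% lay above both controls and 14.3% below, so an excess of barrier genes over the new shares cannot be read from these counts. In this fit limma pooled the variance over all genes, so an SE is not the gene's own: that of Tjp1 went from 0.16 to 0.35.

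For Mfsd2a, vessel content did not bring the libraries together. Its log2 value minus vessel content was 0.90 and -0.33 in the STZ libraries 2L and 4R, against -0.56 and -0.33 in the control libraries 2L and 4R. STZ 2L stood apart, and STZ 4R lay level with control 4R. The fold change per vessel content was 0.73 ± 0.50 (SE; limma, adjusted p = 1.00), and 1.34 without STZ 4R. Slco1a4 (0.36 ± 0.43), Ocln (0.19 ± 0.53), Plvap (0.14 ± 0.45), Abcb1a (0.055 ± 0.44) and Pecam1 (-0.042 ± 0.43) all overlapped between the groups on this scale.

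**Figure D3:**
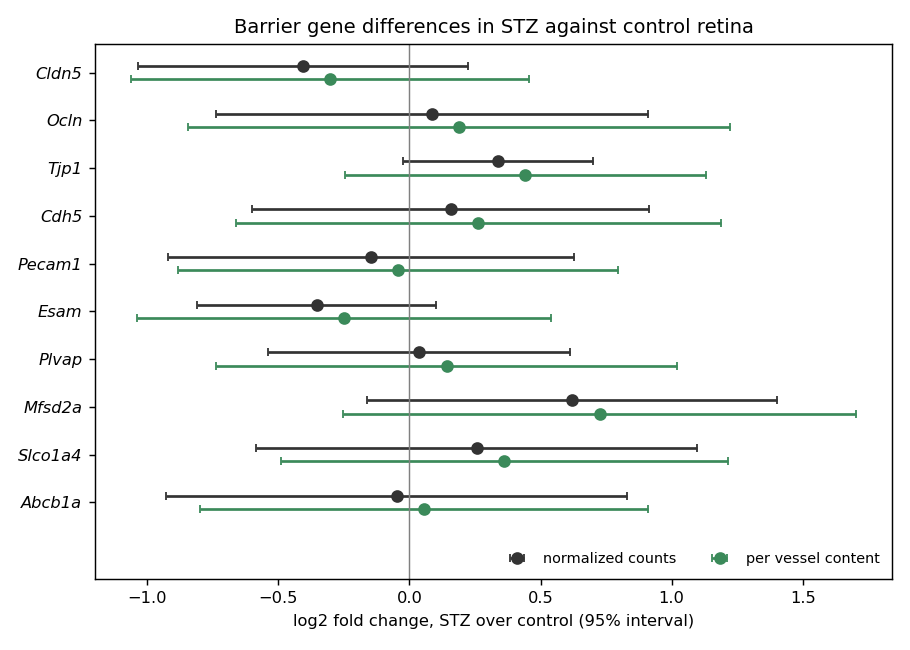
Log2 fold change, STZ over control, with its 95% interval (horizontal axis) for each barrier gene, from normalized counts (black) and after subtraction of vessel content (green). Every interval spans 0. Mfsd2a lies furthest right, at 0.62 and 0.73, and Cldn5 furthest left, at -0.41 and -0.30.

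Other junction genes, 18 of 18 tested, had 15 higher and 3 lower in STZ, 0 called in limma and 2 at an unadjusted p under 0.05, with a median log2 fold change of 0.16 (all genes tested: -0.0057). Both STZ libraries were above both controls in 7 of the 18, against 14.3% of all genes tested, and 2.76% of all genes tested were past the unadjusted level in either direction. Of all genes tested, 48.9% were higher in STZ. The 2 past the unadjusted level were Cldn1 and Cgnl1, both known from epithelia and Cgnl1 from endothelium too. Cldn1, a claudin of epidermis and other epithelia, had 215 and 112 normalized counts in STZ 2L and 4R, against 21.6 and 81.5 in control 2L and 4R. Cgnl1, which encodes the junction plaque protein paracingulin, had 914 and 864 in STZ 2L and 4R, against 444 and 549 in control 2L and 4R, a log2 fold change of 0.85 ± 0.20 (SE; limma, adjusted p = 0.999). The cornea and conjunctiva list, 12 of 12 higher in STZ, with 0 called and 12 at an unadjusted p under 0.05 in limma, had both STZ libraries above both controls for all 12. Its part in the values of the junction genes was not tested. Tjp3 and F11r, the gene of the junctional adhesion molecule JAM-A, stood at 0.90 ± 0.42 and 0.51 ± 0.25.

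Other barrier transporters, 12 of 12 tested, had 10 higher and 2 lower in STZ, 0 called in limma and 3 at an unadjusted p under 0.05, with a median of 0.14. Both STZ libraries were above both controls in 5 of the 12, where all genes tested gave 14.3% above both controls and 2.76% past the unadjusted level. A positive fold change was found for 48.9% of all genes tested. The 3 past the unadjusted level were Abcb1b at 1.58 ± 0.58, the efflux pump gene Abcc4 at 1.03 ± 0.45 and the organic anion transporter gene Slc22a8 at 0.66 ± 0.28 (SE, log2 fold change). Abcc4 had 206 and 200.1 normalized counts in STZ 2L and 4R, against 60.3 and 161 in control 2L and 4R, so control 2L, which also read lowest for pigment epithelium genes, stood apart. The part of pigment epithelium in these values was not tested. Tfrc, the transferrin receptor, stood at 0.20 ± 0.16.

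The caveolae and leukocyte adhesion genes, which serve vesicle transport and the capture of white cells, had 8 of 8 tested genes higher in STZ, where 48.9% of all genes tested were higher. Cav1 averaged 2108.5 normalized counts over the 4 libraries, against 181 for Cdh5, and the cells that these reads came from were not tested. Of the list, limma called 0, with 1 at an unadjusted p under 0.05, and the median was 0.23. That 1 was Sdpr (now Cavin2), a coat protein of caveolae, with 267 and 176 normalized counts in STZ 2L and 4R, against 86.4 and 132 in control 2L and 4R, at 1.02 ± 0.35 (SE). Cav1, the caveolin of these vesicles, stood at 0.20 ± 0.15, the coat gene Ptrf (now Cavin1) at 0.55 ± 0.31 and the adhesion molecule gene Vcam1 at 0.24 ± 0.21. All 4, and 5 of the 8 in all, had both STZ libraries above both controls, against 14.3% of all genes tested, with 2.76% of these past the unadjusted level. The selectin gene Selp, a marker of activated endothelium, read 0 in all 4 libraries. The lens list, 15 of 15 higher in STZ with 0 called and 13 at an unadjusted p under 0.05 in limma, and the cornea list had the same direction, and their part in these values was not tested.

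Norrin, made by Müller glia, signals through Frizzled-4, LRP5 and TSPAN12 on endothelium to induce barrier genes. Of 10 genes of this pathway and its targets, all tested, 3 were higher and 7 lower in STZ, with 0 called in limma (0 at an unadjusted p under 0.05) and a median of -0.16. The receptor genes Fzd4 and Lrp5 stood at 0.39 ± 0.24 and 0.43 ± 0.19, and both had both STZ libraries above both controls. Ndp, the gene of Norrin, stood at -0.23 ± 0.24 and the endothelial transcription factor gene Foxq1 at -0.64 ± 0.40 (SE, log2 fold change), with both STZ libraries below both controls. In all, 2 of the 10 lay above both controls and 3 below, against 14.3% of all genes tested above and 14.3% below.

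Mural cells wrap the capillaries and share in the barrier. Of 11 mural genes tested, 4 were higher and 7 lower in STZ, with 0 called in limma (0 at an unadjusted p under 0.05), and STZ 2L minus STZ 4R had a median of -0.73, like the vessel genes. Pdgfrb, the pericyte receptor for PDGF-B, had 1096 and 789.8 normalized counts in STZ 2L and 4R, against 672 and 717 in control 2L and 4R. Acta2, the smooth muscle actin gene, read 1893 normalized counts in the STZ library 2L and 163 in 4R, against 87.6 and 249 in the controls, so its high value lay in 1 library. Red cell genes, a measure of blood in the tissue, summed to 2971 and 1850.0 normalized counts in STZ 2L and 4R, against 5502 and 1966 in control 2L and 4R, and did not follow the vessel genes. Most of the summed mural level came from Vtn, which photoreceptors also make.

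**Figure D4:**
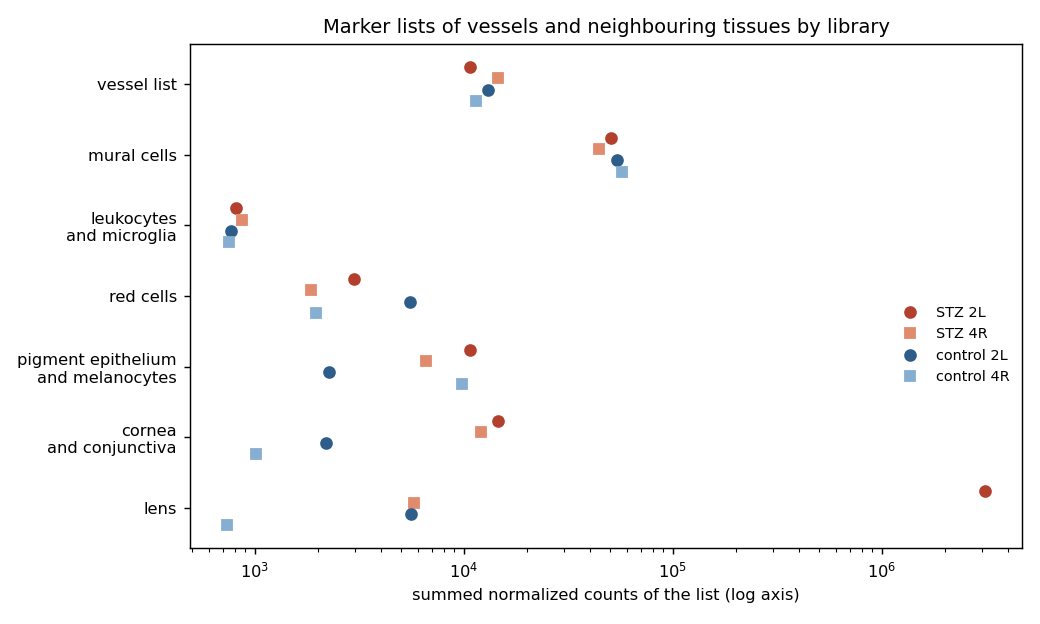
Summed normalized counts (log axis) of the vessel list and of lists for mural cells, blood cells and tissues that border the retina, 1 point per library, STZ in red and control in blue. The vessel list spans 10650 to 14618 over the 4 libraries, whereas the lens list spans 739 to 3100700 and stands apart in STZ 2L. Most of the vessel sum comes from Kdr and Flt1, without which it spans 2663 to 4103 (not drawn).

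The genes outside the 10 whose pattern over the 4 libraries was most like the mean pattern of the barrier genes were Cdkl3, Mfn1, Pik3r4, Med23 and Epb4.1l2, at Euclidean distances of 0.015 to 0.022 log2 units among 13224 candidates with a mean of at least 100. The single barrier genes lay farther from their own mean pattern, from 0.26 for Cdh5 to 0.96 for Mfsd2a. With 4 libraries, many genes come this near by number alone, and 2658 candidates were nearer to that mean than Cdh5, the nearest barrier gene.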

How the data were processed

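Retinal polyadenylated RNA was sequenced on Ion Torrent from whole transcriptome libraries, per the labels' protocols, which name Torrent Suite 5.4.0. Per those protocols, STAR placed reads on mm10, Bowtie2 took what STAR left unmapped, and HTSeq with Picard gave gene counts. Sources used here do not give the annotation, the strand setting or the tool of the comparison. The authors deposited a signal (read counts per gene, scaled by a library's size factor), a log2 fold change with its error, a test score and p-values. Each 2L column matched the labels of 1 sample, whereas each 4R column named only its group and served as a further library of it. All values in a column were whole multiples of what 1 read is worth, to within 0.01 reads. Recovered reads went into edgeR 4.0.16 and DESeq2 1.42.0 as alternatives.

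The test was limma 3.58.1 (R 4.3.3, trend on) on log2(normalized counts + 1), two-sided, for 18127 genes with at least 10 normalized counts in at least 2 libraries, with no covariate and Benjamini-Hochberg adjustment over all of them. The pseudocount understates fold changes of low genes. After vessel content was subtracted, limma pooled the variance over all genes completely. Coordinates and exon lengths come from GENCODE M21. Scripts were tested on simulated data. Members and lists were chosen with earlier results of these data known. The text names the 10 barrier genes, up to 4 genes with the smallest p from a list, and the 5 nearest in pattern. Genes of a list named without values only show what it holds, and Ppbp and Selp were named after their values were seen. A gene of the rod list is not reported here.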

Additional observations from a re-analysis of the deposited data

How the results depend on the processing

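Esam, Tjp1, Mfsd2a and Cldn5 kept their direction under all 16 alternatives (1 library left out in turn, the replicate block, TMM, quantile and vessel scaling, no filter or 50, pseudocounts of 0.5 and 5, robust moderation, edgeR, DESeq2, and lens and cornea genes left out). The block, the filters and robust moderation leave a fold change as it is, so they could not turn a direction. Cldn5 kept its direction by only -0.0023 without STZ 2L. With 1 library left out, log2 fold changes ran from -0.22 to 0.54 (Cdh5), -0.65 to 0.36 (Pecam1), -0.10 to 0.18 (Plvap), -0.65 to 0.55 (Abcb1a), -0.24 to 0.41 (Ocln), -0.20 to 0.71 (Slco1a4), 0.28 without STZ 2L to 0.96 without STZ 4R (Mfsd2a) and -0.81 to -0.0023 (Cldn5), and vessel content from -0.38 to 0.17. Barrier genes called lower then numbered 0 to 1, called per vessel content 0 to 1, and called higher 0; over all genes, 8 to 551 were called higher and 0 to 40 lower. Such fits take the spread from the group that keeps both libraries, so a call gained there is not a stronger effect. Quantile normalization turned Ocln to -0.017 and Plvap to -0.034. Abcb1a turned to 0.055 per vessel content, 0.070 in edgeR and 0.065 in DESeq2. All genes called higher numbered 183 per vessel content, 13 with no filter, 3 with robust moderation and 47 in DESeq2. Vessel content turned to 0.034 as the log2 of the summed values and 0.041 as the median; without Kdr and Flt1 the log2 sum gave -0.13, a choice made after seeing the data. With the replicate block by the shared tag, 0 barrier genes passed, and the block changed no call; the libraries sharing a tag deviated together only weakly (correlation 0.099 across genes), and the labels give the tag no meaning. Ocln, with 67 to 129 reads a library, and the low vessel genes are limited most by depth.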

Other observations

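Ratios between barrier genes within a library do not depend on how the libraries are scaled. The ratio of Plvap to Cldn5, a pair that moves in opposite directions as barrier vessels mature, was 0.552 in the STZ library 2L and 0.260 in 4R, against 0.265 in the control library 2L and 0.292 in 4R. The ratio of Mfsd2a to Cldn5 was 0.426 in the STZ library 2L and 0.151 in 4R, against 0.105 in the control library 2L and 0.147 in 4R. Both ratios stood apart in STZ 2L, and STZ 4R lay near or among the controls. The ratio of Tjp1 to Cldn5 was 6.08 and 3.92 in STZ 2L and 4R, against 2.82 and 3.01 in control 2L and 4R. There both STZ libraries were above both controls. That of Mfsd2a to Cdh5 was 1.43 and 0.527 in STZ 2L and 4R, against 0.634 and 0.623 in control 2L and 4R. That of Pecam1 to Cdh5 was 1.51 in the STZ library 2L and 1.80 in 4R, against 2.07 in the control library 2L and 2.02 in 4R, with both STZ libraries below both controls. These ratios were picked after their values were seen and were not tested. In STZ 2L, lens genes took 8.86% of reads, and their part in these ratios was not tested.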
